A study of Mus musculus with 6 samples.

Results

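The NELL proteins, the ROBO receptors and the SLIT ligands were followed in cultured calvarial preosteoblasts, the precursor cells of bone-forming osteoblasts. The 10 genes were chosen by name from a table of 17001 rows, and all 10 were found. They were the NELL genes *Nell1* and *Nell2*, the receptor genes *Robo1*, *Robo2*, *Robo3* and *Robo4*, the ligand genes *Slit1*, *Slit2* and *Slit3*, and *Cntnap4*, which encodes a reported cell-surface receptor of NELL1. RNA was sequenced from 3 control libraries, genotype NELL2 fx/fx, and from 3 libraries labelled cKO, genotype Col1-cre; NELL2 fx/fx. Both groups carried the floxed *Nell2* alleles and came from pups 3 days of age, grown in α-MEM with serum, and the groups differed in the Cre transgene. Cre was driven by a fragment of the mouse Col1a1 promoter, so the design targets *Nell2* in cells that switch this promoter on, and how many cells of these cultures had recombined was not measured here. The labels do not say whether a library came from 1 pup or from pooled pups, so p-values measure the spread between these libraries, which may be technical.

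NELL1 and NELL2 are secreted glycoproteins with a thrombospondin-1-like module, von Willebrand factor C domains and EGF-like repeats. NELL1 is known for promoting bone formation in the skull, and NELL2 for guiding axons through ROBO3 and for its part in sperm maturation. ROBO receptors are single-pass membrane proteins that bind SLIT proteins, secreted ligands with leucine-rich repeats that repel growing axons and also act on blood vessels and bone cells. NELL2 has also been reported to bind ROBO2, and it was studied here together with fibronectin 1 and integrin β1.

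The targeted gene is shown first by sequence, since the table holds 1 value per gene and does not resolve exons. *Nell2* (ENSMUSG00000022454.17) lies on the minus strand at chr15:95075230-95528559 of GRCm38 in GENCODE M21. This release may not be the one behind the deposited values. Of its 3 protein-coding transcripts, the one with the longest coding sequence has 21 exons and 3152 bases. The primers that the study listed for knockout efficiency matched exons 3 and 4 of this transcript, bases 263 to 419, with the primer named forward on the antisense strand. The primers listed for qRT-PCR matched exons 9 and 10, bases 948 to 1102. Both pairs were found in all 3 protein-coding transcripts, and both amplicons were coding sequence. The amplicons are printed with the primer sites in capitals, because they mark which stretches of *Nell2* the PCR assays read while the sequencing value covers the whole gene, and the *Nell1* amplicon of the study is printed beside them.
Nell2, knockout efficiency: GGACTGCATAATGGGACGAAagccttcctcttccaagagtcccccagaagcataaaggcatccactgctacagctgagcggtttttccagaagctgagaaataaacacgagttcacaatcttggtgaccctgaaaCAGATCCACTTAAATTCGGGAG
Nell2, qRT-PCR: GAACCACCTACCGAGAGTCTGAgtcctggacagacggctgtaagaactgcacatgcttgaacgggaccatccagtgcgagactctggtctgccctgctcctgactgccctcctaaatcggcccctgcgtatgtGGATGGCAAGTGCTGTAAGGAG
Nell1, qRT-PCR: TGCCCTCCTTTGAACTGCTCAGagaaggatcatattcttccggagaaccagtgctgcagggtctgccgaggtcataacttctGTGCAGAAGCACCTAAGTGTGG

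The knockout-efficiency amplicon is 157 bases long, 4.98% of that transcript, and its ends lie at chr15:95473540-95527313. Exon 3 (chr15:95527277-95527405, 129 bases) and exon 4 (chr15:95473509-95473659, 151 bases) together hold 8.88% of the transcript. The qRT-PCR amplicon is 155 bases long at chr15:95429885-95431597, in exon 9 of 129 bases and exon 10 of 103 bases. The *Nell1* amplicon is 104 bases long and spans exons 11 and 12 of the longest coding transcript of that gene at chr7:50258196-50279551. Which exons of *Nell2* are floxed is not given in the sources used here.

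**Figure D1:**
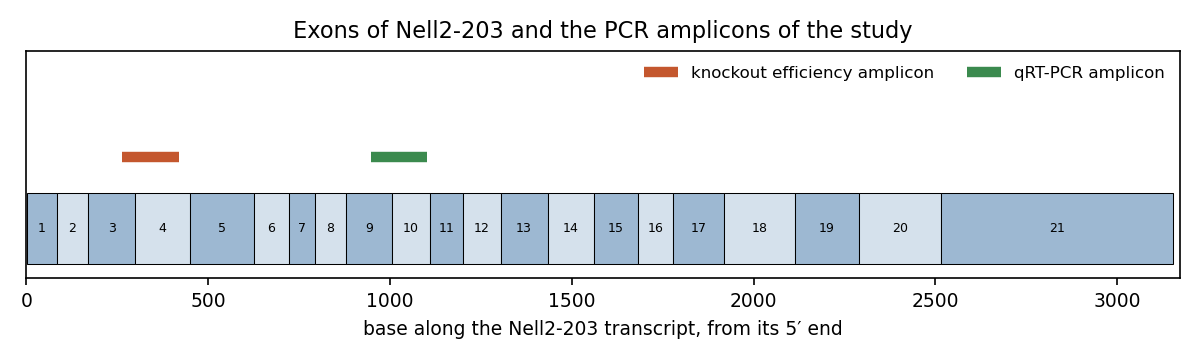
The 21 exons of the *Nell2* transcript drawn to scale along the transcript, in bases from the 5′ end, with the amplicons of the study as bars. The knockout-efficiency amplicon covers bases 263 to 419 in exons 3 and 4, and the qRT-PCR amplicon covers bases 948 to 1102 in exons 9 and 10.

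The targeted transcript showed no fall with the cKO label. In FPKM, a fragment count scaled to transcript length and to the mapped fragments of the library, *Nell2* was 3.17, 2.59 and 1.88 in control replicates 1, 2 and 3. In cKO replicates 1, 2 and 3, taken by label, it was 5.64, 1.61 and 5.74. The groups overlapped, because the library labelled cKO replicate 2 lay below every control and the other cKO libraries lay above every control. On log2(FPKM + 1), where changes of low genes come out too small, the difference was 0.48 (standard error 0.37, 95% interval -0.40 to 1.35, Benjamini-Hochberg adjusted p = 0.591 from limma). In terms of FPKM + 1 the interval runs from 0.760 to 2.56 times the control value. Neither a fall as far as 0.760 times nor a gain could therefore be told from this spread. A deeper fall of the group mean on that scale lay outside this interval but is not excluded. The limma error draws on the spread of all rows, and the log2 SD of *Nell2* was 0.27 in controls and 0.78 in the libraries labelled cKO. Without the library labelled cKO replicate 2 the difference was 0.93, and without cKO replicate 3 it was 0.25, with adjusted p-values of 0.598 and 0.886. Directions given from here on follow the labels, which the FPKM of *Nell2* in these libraries does not separate. The study also assayed *Nell2* in such cells by qRT-PCR and western blotting, which are not analysed here.

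Depth cannot be read from FPKM, so no counting error is given. Summed over all rows, a library held 573307 to 606428 FPKM. Pearson correlations between libraries over the 11590 rows tested ranged from 0.982 to 0.994. The library labelled cKO replicate 1 correlated more closely with the controls (0.992 to 0.993) than with the other cKO libraries (0.988 to 0.990). The Y-linked gene *Ddx3y* was at 15.65 to 17.33 FPKM in control replicate 3 and in cKO replicates 1 and 3 by label, and at most 0.06 in the other 3 libraries. With *Ddx3y*, *Nell2* was 1.88 FPKM in control replicate 3 and 5.64 and 5.74 FPKM in cKO replicates 1 and 3. Without it, *Nell2* was 3.17 and 2.59 FPKM in control replicates 1 and 2 and 1.61 FPKM in cKO replicate 2. Adding Y-linked expression as a covariate gave a *Nell2* difference of 0.32 (adjusted p = 0.762 from limma). The cultures carried the defining transcripts of the osteoblast lineage: *Col1a1*, the main collagen chain of bone, was at 8053 to 8578 FPKM, and the transcription factor genes *Runx2* and *Sp7* were at 10.98 to 14.71 and 10.31 to 17.57 FPKM.

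The family as a whole did not move in a common direction. Of the 10 members, 6 reached 1 FPKM in 3 or more libraries and entered the test over all rows, and 4 did not. In the moderated test of limma, 0 of these 6 passed 0.05 with adjustment and 0 without it. Over all 11590 rows tested, 0.0% passed with adjustment and 13.1% without, 5.37% higher and 7.76% lower under the cKO label. In 0 of the 6 tested members were the control and cKO values free of overlap, against 18.3% of all rows tested (6.51% higher and 11.8% lower). The groups also overlapped in the 4 members under the filter, which reached at most 0.27 FPKM. The tested members had a median log2 difference of -0.02, as did all rows, and 2 leaned higher and 4 lower under the cKO label.

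**Figure D2:**
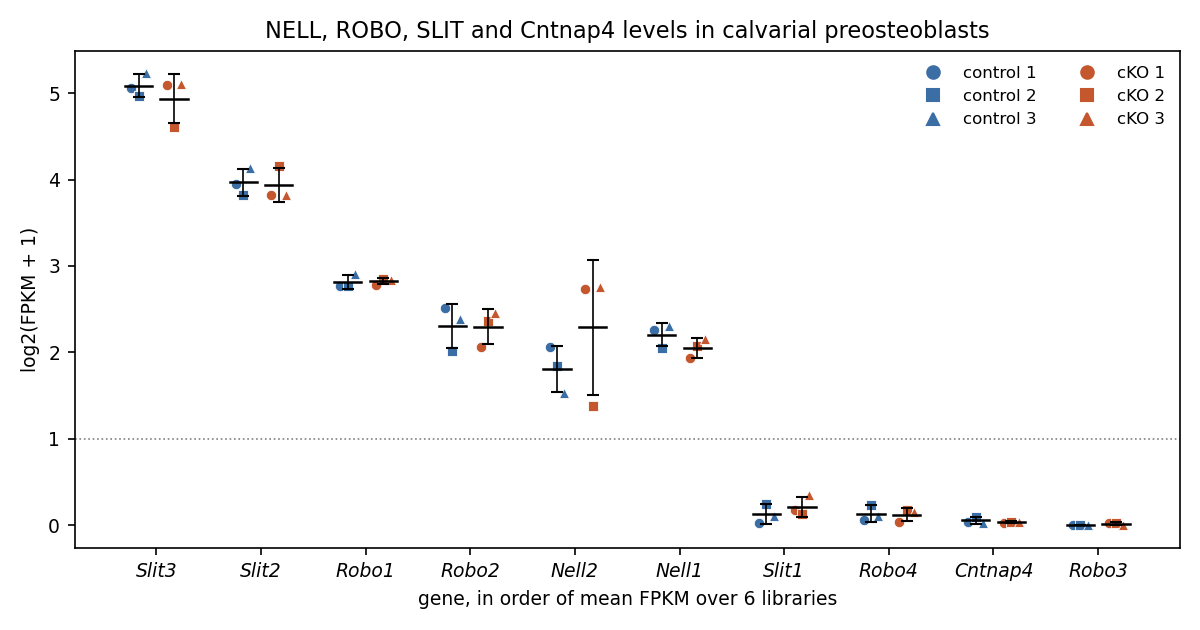
Level of each of the 10 members as log2(FPKM + 1), 1 symbol per library, with the mean (line) and SD (bar) of 3 libraries per group, and a dotted line at an FPKM of 1. *Slit3* and *Slit2* lead, *Slit1*, *Robo4*, *Cntnap4* and *Robo3* lie below the dotted line in all 6 libraries, and *Nell2* has the widest bar.

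*Nell1*, the skeletal paralog of *Nell2*, lies on chr7:49974864-50866608 on the plus strand. Its FPKM was 3.77, 3.16 and 3.96 in the control libraries and 2.81, 3.20 and 3.44 in the libraries labelled cKO. The mean was 3.63 ± 0.42 in controls and 3.15 ± 0.32 in the libraries labelled cKO (SD, n = 3 each). The cKO libraries lay on the low side, but control replicate 2 fell among them. The log2 difference was -0.16 (standard error 0.09, 95% interval -0.38 to 0.06, adjusted p = 0.495 from limma), which in terms of FPKM + 1 is 0.770 to 1.05 times the control value. *Nell1* and *Nell2* stood at like levels, with means of 3.39 and 3.44 FPKM over the 6 libraries, but *Nell2* varied far more. The ratio of *Nell2* to *Nell1* was 0.841, 0.820 and 0.475 in the control libraries and 2.01, 0.503 and 1.67 in those labelled cKO, and its mean did not differ beyond this spread (exact two-sided permutation test, p = 0.3, where 3 against 3 can give no p below 0.1). The sum of both NELL genes was 6.18 ± 0.66 FPKM in controls and 7.48 ± 2.34 FPKM in the libraries labelled cKO (SD, n = 3 each, p = 0.4 in the same exact test).

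Among the receptors, *Robo1* and *Robo2* carried nearly all of the ROBO transcript. *Robo1*, a receptor of SLIT2 and SLIT3 found on many cell types, was at 5.84, 5.82 and 6.51 FPKM in controls and at 5.88, 6.20 and 6.15 FPKM in the libraries labelled cKO. It was the steadiest member, its highest library exceeding its lowest by a factor of 1.12. Its log2 difference was 0.01 with a 95% interval of -0.15 to 0.16 (adjusted p = 0.982 from limma), which in terms of FPKM + 1 is 0.901 to 1.12 times the control value. *Robo2*, a SLIT receptor also reported to bind NELL2, was at 4.70, 3.04 and 4.23 FPKM in controls and at 3.19, 4.15 and 4.50 FPKM in the libraries labelled cKO. Low and high libraries of *Robo2* occurred in both groups, and its interval was wider, from -0.37 to 0.36. *Robo1* made up 55.2% to 64.5% of the summed ROBO FPKM of a library. That sum was 10.1 ± 0.97 FPKM in controls and 10.1 ± 0.88 FPKM in the libraries labelled cKO (SD, n = 3 each, exact permutation p = 1).

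*Robo3* and *Robo4* were at or near 0. *Robo3*, the divergent receptor through which NELL2 steers commissural axons, was listed at 0 in all 3 controls and in the library labelled cKO replicate 3, and at 0.02 FPKM in the other cKO libraries. *Robo4*, the receptor of blood vessel endothelium, was at 0.04, 0.18 and 0.08 FPKM in controls and at 0.03, 0.13 and 0.11 FPKM in the libraries labelled cKO. Other endothelial genes were low as well: of the 7 listed markers, *Pecam1*, *Kdr*, *Tie1* and *Emcn* were under 1 FPKM in all 6 libraries, and the list summed to 8.57 to 11.1 FPKM in controls and 8.23 to 9.55 FPKM in the libraries labelled cKO. Of that sum, *Egfl7*, which encodes a secreted protein, gave 5.88 to 7.03 FPKM. *Robo4* did not separate the groups (exact two-sided permutation test, p = 0.9).

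The ROBO genes lie in pairs, and the pairs differed in level. *Robo1* (chr16:72308306-73046095, plus strand) and *Robo2* (chr16:73891839-74411825, minus strand) are 846 kb apart with 0 protein-coding genes between them in the annotation, and span 738 and 520 kb in it. RefSeq places some starts of *Robo1* and *Robo2* elsewhere, as given with the promoter windows below. *Robo3* (chr9:37415669-37433246, minus strand) and *Robo4* (chr9:37401897-37415115, plus strand) are 553 bases apart and span 17.6 and 13.2 kb. Every library had more *Robo1* and *Robo2* than *Robo3* and *Robo4*.

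The ligands gave the highest levels of the family. *Slit3* (chr11:35121224-35708507, plus strand), whose protein is secreted by osteoblasts and osteoclasts and acts on skeletal vessels, was at 32.33, 30.28 and 36.51 FPKM in controls and at 33.07, 23.34 and 33.35 FPKM in the libraries labelled cKO. The library labelled cKO replicate 2 was the lowest, and the other cKO libraries lay within the control range. The log2 difference was -0.15 (standard error 0.15, 95% interval -0.50 to 0.20, adjusted p = 0.666 from limma), and it was 0.01 without that library. Adding the Y-linked covariate to the model moved the *Slit3* difference to -0.27 (standard error 0.09, adjusted p = 0.463 from limma). Among libraries with *Ddx3y*, cKO replicates 1 and 3 lay below control replicate 3. Among those without it, cKO replicate 2 lay below control replicates 1 and 2. Read the same way, *Nell2*, *Slit2* and *Robo1* went opposite ways with and without *Ddx3y*, and *Nell1* and *Robo2* were mixed. With so few libraries on each side, this reading was not tested. *Slit2* (chr5:47983138-48307733, plus strand), the ligand best known from axon repulsion at the midline, was at 14.42, 13.11 and 16.60 FPKM in controls and at 13.12, 16.86 and 13.11 FPKM in the libraries labelled cKO. Here the library labelled cKO replicate 2 was the highest of all 6. The log2 difference of *Slit2* was -0.04 (95% interval -0.33 to 0.26, adjusted p = 0.920 from limma). *Slit1* (chr19:41600257-41743665, minus strand), a ligand mainly of the nervous system, was at 0.02 to 0.19 FPKM in controls and 0.09 to 0.27 FPKM in the libraries labelled cKO.

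*Slit3* formed 68.6% to 71.4% of the summed SLIT FPKM in 5 libraries and 57.9% in the library labelled cKO replicate 2. The SLIT sum was 47.8 ± 4.89 FPKM in controls and 44.4 ± 3.61 FPKM in the libraries labelled cKO (SD, n = 3 each, exact permutation p = 0.4). It exceeded the ROBO sum 3.84 to 5.08 times within a library, a ratio of transcripts per length and not of proteins. That ratio did not differ between the groups beyond its spread (exact permutation p = 0.6).

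*Cntnap4* (chr8:112570043-112882717, plus strand), a neurexin-family membrane protein, was at 0.03, 0.07 and 0.02 FPKM in controls and at 0.02, 0.03 and 0.03 FPKM in the libraries labelled cKO. It shares exon bases with the gene model *Gm45904* on the other strand, and whether counting used strand is not given in the sources used here. The levels of *Cntnap4* and *Robo3* lie within a few steps of the 0.01 FPKM to which values were rounded, and fewer expressing cells and less RNA per cell cannot be told apart at such levels, nor at those of any other member.

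**Figure D3:**
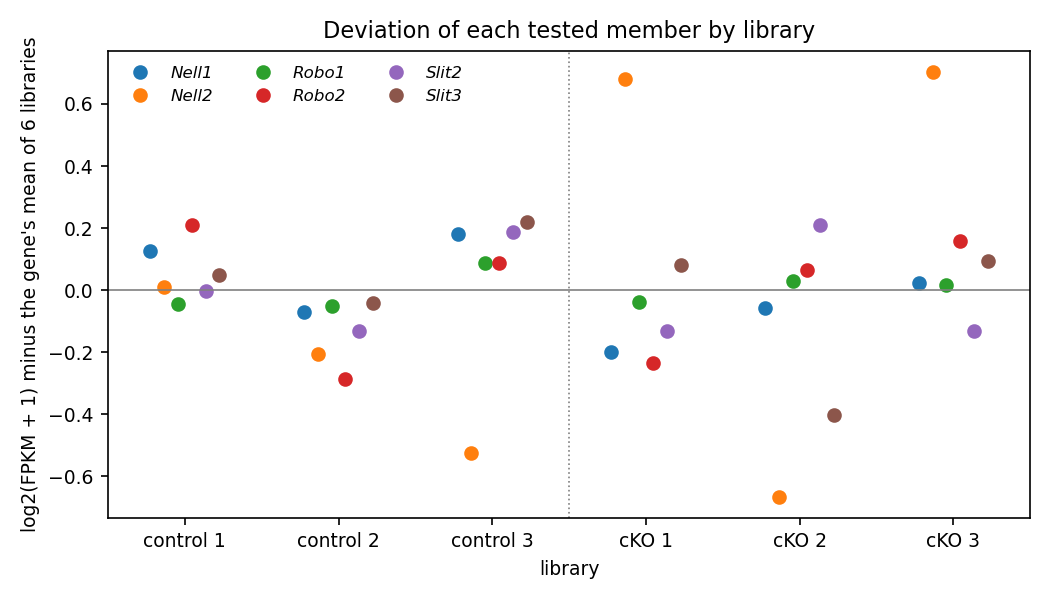
Deviation of each of the 6 tested members from its own mean over the 6 libraries, on log2(FPKM + 1), by library, with the dotted line between the groups. *Nell2* stands high in the libraries labelled cKO replicates 1 and 3 and low in cKO replicate 2 and control replicate 3, while *Slit2* is high and *Slit3* low in cKO replicate 2.

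Compared by level, the members formed an order that held within libraries for some neighbours only. By mean FPKM over the 6 libraries the order was *Slit3* (31.5), *Slit2* (14.5), *Robo1* (6.07), *Robo2* (3.97), *Nell2* (3.44), *Nell1* (3.39), *Slit1* (0.13), *Robo4* (0.095), *Cntnap4* (0.033) and *Robo3* (0.0067). These means exceeded those of 84.8% of all rows of the table for *Slit3*, 71.4% for *Slit2*, 54.1% for *Robo1*, 47.0% for *Robo2*, 45.0% for *Nell2* and 44.8% for *Nell1*. Within libraries, *Slit3* exceeded *Slit2* by 1.06 ± 0.31 on the log2(FPKM + 1) scale (SD, n = 6), *Slit2* exceeded *Robo1* by 1.13 ± 0.13, and *Robo1* exceeded *Robo2* by 0.52 ± 0.19, each in 6 of 6 libraries. *Nell1* exceeded *Slit1* by 1.96 ± 0.21, and *Robo4* exceeded *Cntnap4* by 0.08 ± 0.06, again in 6 of 6 libraries. *Robo4* and *Cntnap4* lie near the rounding step, at 0.04 and 0.03 FPKM in control replicate 1 and 0.03 and 0.02 FPKM in cKO replicate 1. Each of these 5 pairs gave p = 0.0313 in the exact two-sided sign-flip permutation test, the smallest p that 6 libraries allow, and an adjusted p of 0.0563 over the 9 neighbouring pairs, so none passed 0.05 after adjustment. The pairs were ranked on the means of these same libraries, so these p-values describe how evenly the libraries kept the order and are no independent test of it.

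The other 4 neighbouring pairs did not keep 1 order in all libraries. *Robo2* was above *Nell2* in 4 of 6 libraries (exact p = 0.375, adjusted p = 0.482), and *Nell2* was above *Nell1* in 2 of 6 (exact p = 0.719, adjusted p = 0.719), although its mean was higher. *Slit1* was above *Robo4* in 3 of 6 libraries, below it in 2 and equal to it in 1 (exact p = 0.438, adjusted p = 0.492). *Cntnap4* was above *Robo3* in 5 of 6 libraries and equal to it in the library labelled cKO replicate 1 (exact p = 0.0625, adjusted p = 0.0938).

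The members also differed in their spread over libraries. On log2(FPKM + 1), the SD of *Nell2* over the 6 libraries was 0.59, larger than that of 98.8% of the rows tested, whose median SD was 0.11. *Slit3* and *Robo2* followed at 0.21 each, with 83.9% and 82.9% of rows below them, then *Slit2* at 0.16 (72.7%) and *Nell1* at 0.14 (64.7%). *Robo1* was at 0.05, with only 9.17% of rows below it. Within groups, the SD of *Nell2* was 0.27 in controls and 0.78 in the libraries labelled cKO, and the highest library exceeded the lowest 3.57 times.

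The genes whose pattern over the 6 libraries came nearest to a member were named by a rule, as a description over few points that share libraries. For *Nell2* these were *Csf2ra*, a cytokine receptor subunit (Pearson r = 0.997), *Pigo*, an enzyme of GPI anchor synthesis (r = 0.972), and *Vsig10l* (r = 0.965). *Csf2ra* was at 2.10, 1.96 and 1.82 FPKM in controls and at 2.38, 1.75 and 2.45 FPKM in the libraries labelled cKO, so it kept the order of *Nell2* over a narrower range. For *Robo1* they were *Actc1*, a muscle actin (r = 0.988), *Nfia*, a transcription factor (r = 0.985), and *Igf1*, a growth factor (r = 0.980), and for *Slit3* they were *Snap23* (r = 0.991), *Grik1* (r = 0.989) and *Coq2* (r = 0.970). Among the 11589 rows compared, 29 had an r above 0.9 with *Nell2*, 142 with *Robo1* and 55 with *Slit3*. Between members, r ran from -0.83 for *Nell2* and *Slit2* to 0.75 for *Nell1* and *Robo2*, and it was -0.35 for *Slit2* and *Slit3*.

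The partners of these proteins ranged from far above the members in level to near 0. *Fn1*, fibronectin 1, the matrix protein studied here as a partner of NELL2, was at 2058 to 2496 FPKM in controls and 2195 to 2353 FPKM in the libraries labelled cKO, 393 to 1363 times the level of *Nell2* in the same library. *Itgb1*, the integrin β1 chain that binds fibronectin, was at 332 to 348 and 308 to 355 FPKM. Neither differed between the groups beyond its spread, with log2 differences of -0.004 (95% interval -0.21 to 0.20, adjusted p = 0.986) and -0.05 (-0.21 to 0.12, adjusted p = 0.798, both from limma). *Atraid*, which encodes a reported NELL1-binding protein, was at 64.5 to 87.3 FPKM over all libraries. *Itga3*, the integrin α3 chain to which NELL1 has been reported to bind, was at 2.64, 3.36 and 2.69 FPKM in controls and at 4.88, 5.62 and 3.05 FPKM in the libraries labelled cKO, and control replicate 2 lay above cKO replicate 3. Its log2 difference of 0.48 had a standard error of 0.18, an unadjusted p of 0.0356 and an adjusted p of 0.352 from limma.

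Surface partners of SLIT and ROBO come next. *Dag1*, dystroglycan, which binds SLIT in basement membranes, was at 64.1 to 71.4 FPKM over all libraries (log2 difference 0.05, adjusted p = 0.736 from limma). *Gpc1*, glypican-1, a heparan sulfate proteoglycan that binds SLIT2, was at 204.63, 196.73 and 152.91 FPKM in controls and at 155.90, 121.67 and 143.41 FPKM in the libraries labelled cKO. Its groups overlapped through control replicate 3 and cKO replicate 1, and its log2 difference was -0.39 (standard error 0.14, unadjusted p = 0.0261, adjusted p = 0.329 from limma). *Plxna1*, a receptor of the SLIT C-terminal fragment, was at 21.3 to 24.5 FPKM in controls and 20.1 to 21.3 FPKM in the libraries labelled cKO (log2 difference -0.17, adjusted p = 0.382). *Dcc*, the netrin receptor that ROBO1 can silence in axons, was at 0.02 FPKM or less in every library.

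Of the intracellular SLIT-ROBO GTPase-activating proteins, which bind the ROBO tail, *Srgap2* was the highest at 6.35 to 7.55 FPKM, followed by *Srgap3* at 3.51 to 4.49 FPKM and *Srgap1* at 1.57 to 1.88 FPKM. Their log2 differences were -0.11, 0.10 and 0.04, with adjusted p-values of 0.478, 0.620 and 0.796 from limma. *Abl1*, the kinase that phosphorylates ROBO, was at 25.71, 27.18 and 25.57 FPKM in controls and at 24.41, 23.30 and 23.07 FPKM in the libraries labelled cKO (log2 difference -0.14, standard error 0.06, adjusted p = 0.380 from limma).

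**Figure D4:**
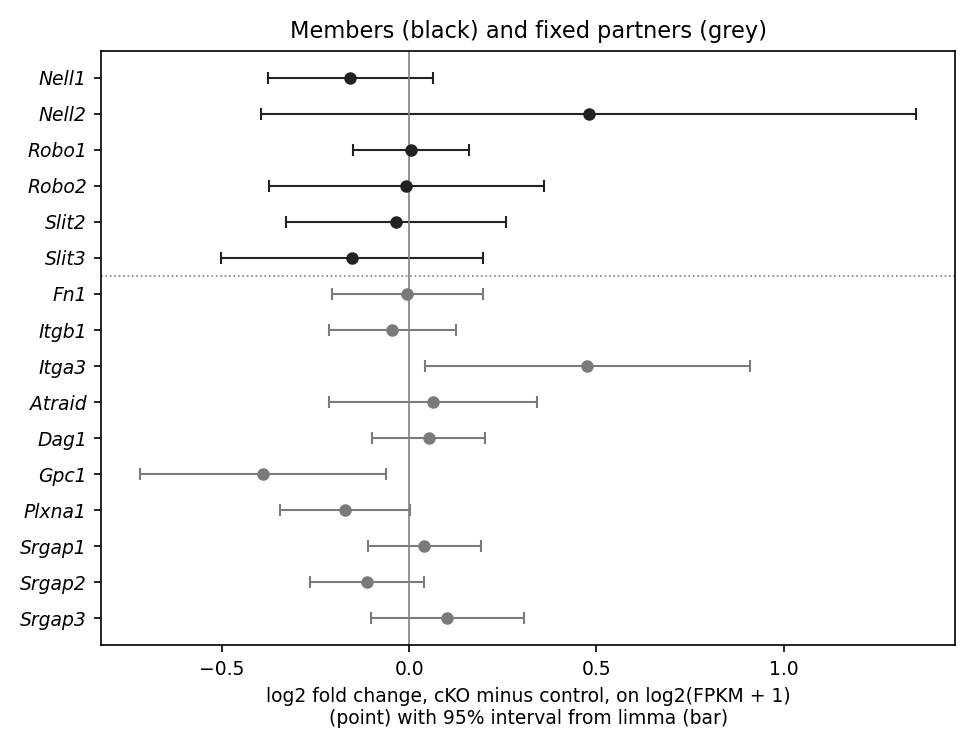
Log2 difference between libraries labelled cKO and controls on log2(FPKM + 1) for the 6 tested members (black) and the 10 partners always named from the list (grey), with the 95% interval from limma. The intervals of all 6 members cross 0, *Nell2* having the widest and *Robo1* the narrowest, and of the 10 partners drawn those of *Itga3* and *Gpc1* do not.

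Counted over the list of 42 partners and effectors, 39 passed the filter on low values, 21 of them on the higher and 18 on the lower side, with a median log2 difference of 0.01 against -0.02 for all rows. In limma 0 of these 39 passed 0.05 with adjustment and 3 without it, *Itga3*, *Gpc1* and *Abl1*, a share of 7.69% against 13.1% of all rows. The groups did not overlap in 4, *Akt1*, *Srgap2*, *Abl1* and *Cdc42*, all lower in the libraries labelled cKO, and *Akt1* and *Cdc42* are named after their values were seen. That share was 10.3%, against 18.3% of all rows in either direction and 11.8% in the lower direction. Without the library labelled cKO replicate 1, 324 of all 11590 rows passed the adjusted threshold, and of the 39 partners 1 did, *Hs6st1*, which sulfates heparan sulfate chains (log2 difference 0.60, standard error 0.10, adjusted p = 0.0438 from limma).

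Markers of other cells that carry these genes in the body were measured in the same libraries. The 7 neuronal markers summed to 14.8 to 20.2 FPKM in controls and 12.9 to 25.7 FPKM in the libraries labelled cKO, with 5 of 7 under 1 FPKM in every library. *Tubb3* and *Stmn2*, which carried most of that sum, were at 6.91 to 14.83 and 4.26 to 11.29 FPKM. The 5 Schwann cell markers summed to 5.10 to 6.58 FPKM in controls and 6.63 to 9.26 FPKM in the libraries labelled cKO, and the 6 epithelial markers to 0.46 to 13.4 FPKM and 18.2 to 42.7 FPKM, so for both lists the summed levels of the groups did not overlap. The 8 macrophage and osteoclast markers summed to 314 to 407 and 323 to 372 FPKM, most of it *Ctsk* at 261 to 309 FPKM. *Lyz2* was at 26.61 to 74.99, *Acp5* at 18.02 to 26.98, *Cd68* at 2.69 to 7.10 and *Csf1r* at 0.84 to 1.31 FPKM. *Adgre1* and *Itgam* were under 1 FPKM in every library, as was *Ptprc*, which marks all leukocytes, at 0.07 to 0.18 FPKM. The sums of 6 skeletal muscle markers were 9.29 to 21.5 and 12.8 to 17.4 FPKM, of 5 chondrocyte markers 89.6 to 152 and 130 to 163 FPKM, and of 5 perivascular markers 116 to 123 and 120 to 144 FPKM. No marker was at 0 in all 6 libraries. Of the 11 osteoblast lineage markers, 6 did not overlap between the groups, 5 of them lower in the libraries labelled cKO, against 18.3% of all rows in either direction and 11.8% in the lower one. The lower ones were *Sp7*, *Alpl*, *Ibsp*, *Bglap* and *Prrx1*, and *Postn* was higher. In limma 0 of the 11 passed the adjusted threshold and 6 had an unadjusted p under 0.05, against 13.1% of all rows. The part of these cells in the levels of the family was not tested.

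Promoter windows were read from RefSeq for GRCm38.p6, 250 bases before to 50 after a transcription start, for 7 of the 10 members. *Nell2*, *Slit1* and *Cntnap4* were without a window. The number of CG dinucleotides was 41 for *Slit3*, 30 for *Slit2* and 28 for *Nell1*, against a median of 7 over the 32851 windows of the table. It was 15 for *Robo1*, 5 to 17 for the 3 windows of *Robo2*, 17 for *Robo3* and 2 for *Robo4*, a count that 14.1% of all windows fell below. The *Robo2* windows at chr16:75092721-75093020 and chr16:75447244-75447543 lie beyond the GENCODE model of *Robo2* given above. The *Robo1* window, at chr16:72662899-72663198, lies inside the GENCODE model of *Robo1* and not at its start. *Robo3*, listed at 0 in 4 libraries, had as many as the richest *Robo2* window, and *Robo2* was at 3.04 to 4.70 FPKM. Values per gene do not show which *Robo2* start was used, and a link between CG count and level was not tested.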

How the data were processed

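Polyadenylated RNA of 6 libraries was sequenced as 150 bp paired-end reads. Per the labels and the methods, the authors mapped reads with HISAT2, and the submitters' processing notes name GRCm38 and DESeq. The authors deposited FPKM values rounded to 2 decimals, 1 per gene symbol and library, in a table named for raw counts. The annotation release and the program that computed FPKM are not given in the sources used here. FPKM keeps no depth, so no count test, counting interval or detection floor was computed. All 6 columns of values were used.

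The 11590 of 17001 rows that reached 1 FPKM in 3 or more libraries were compared as log2(FPKM + 1) with limma 3.58.1 in R 4.3.3, with Benjamini-Hochberg adjustment over all of them. Single sums and ratios were compared by exact permutation over libraries, and levels of neighbouring members by exact sign flips. The members, the partner and marker lists and the settings were chosen with earlier results of these data known. Named partners were fixed by list, plus those with an unadjusted p under 0.05. *Dcc*, *Hs6st1*, *Akt1* and *Cdc42* were named outside this rule, *Hs6st1* because it passed with a library left out. Genes of like pattern were the 3 with the highest Pearson correlation. Gene models came from GENCODE M21 (GRCm38), promoters from RefSeq, and primers from the study's supplementary tables, matched without mismatch to transcripts. Alternatives were the pseudocount, the filter, a variance trend, the scaling, a replicate block, a Y-linked covariate and each library left out.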

Additional observations from a re-analysis of the deposited data

How the results depend on the processing

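The number of members with an adjusted p-value under 0.05 was 0 under each alternative run, which were a pseudocount of 0.1 or 0.5, 3 other filters, a variance trend, 2 scalings, the replicate block, the Y-linked covariate and each of the 6 libraries left out. Over all rows that number was 0 except with libraries left out, where it ran from 0 to 324, with 2 without control replicate 3 and 324 without the library labelled cKO replicate 1. Partners and markers called ran from 0 to 1 each, *Hs6st1* and *Epcam*, both without cKO replicate 1. Rows without overlap between groups numbered 2123, and 2746 to 4864 with 1 library left out, where fewer values have to be parted. The log2 difference of *Nell2* stayed positive, 0.32 to 0.57 across settings with all libraries and 0.25 to 0.93 with 1 left out, and that of *Nell1* stayed negative, from -0.23 to -0.10 with 1 left out. *Robo1* changed sign to -0.00745 with values rescaled to TPM and to -0.0113 with the Y-linked covariate, and *Robo2* to 0.00257 with median-ratio scaling. With 1 library left out, *Robo1* ran from -0.0186 to 0.0509, *Robo2* from -0.152 to 0.108, *Slit2* from -0.148 to 0.0496 and *Slit3* from -0.237 to 0.0113. The difference of the ROBO sum, -0.02 FPKM, became 0.0647 FPKM with median-ratio scaling and ran from -0.573 to 0.483 FPKM with 1 library left out. For the NELL and SLIT sums it ran from 0.453 to 2.64 and from -5.53 to -0.728 FPKM. Of the 9 neighbouring pairs in level, 8 kept the order of mean FPKM in mean log2(FPKM + 1), 7 in the control libraries alone, 9 in those labelled cKO alone, and 8 to 9 with 1 library left out. The cause of these changes was not tested.

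The labels do not say whether same-numbered libraries share more than a number. After group means were taken off, their values correlated at 0.03 in the mean, from -0.17 to 0.21. So few pairs cannot exclude a shared preparation. With the replicate block the *Nell2* difference was 0.48 (adjusted p = 0.582 from limma) and 0 rows passed, with 1465 at an unadjusted p under 0.05. Members under the filter, when all rows entered, had adjusted p-values of 0.733 to 0.967. Without read counts, the counting error of the low members cannot be given.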
